A study of Danio rerio with 3 samples.

Results

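The transcriptome described here is that of the non-treated zebrafish embryos, which is 1 of the 3 RNA-seq libraries of the study, and its members are all 31950 genes of the deposited FPKM and count tables, read from the column of the non-treated embryos. The other 2 libraries come from embryos subjected to Z-REX, in which a photocaged electrophile bound to a Halo-tagged protein is released by light, with HNE (4-hydroxynonenal) or HDE (4-hydroxydodecenal). By the deposited protocol, all 3 groups had received about 2 nl of an mRNA for the fusion protein Halo-TEV-Keap1 at the earliest cell stages. They were grown at 28.5 °C. On this reading the non-treated group was free of probe and light but not of the injected construct. By the description of the supplementary data, the embryos were *Tg(lyz:TagRFP)*, a line whose neutrophils are marked red through the *lyz* promoter. Their RNA was taken from whole embryos, as 1 library of polyadenylated RNA. The number of embryos pooled and a separate age for the non-treated embryos are not given in the sources used here, and the deposited treatment text repeats the 30 h dark incubation of Z-REX for every library.

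The library held 17996111 counts, against 17704410 and 15084294 in the HNE and HDE libraries. With 1 library per group there is no replicate spread and no test, so all values below are descriptions of these libraries, and the 95% intervals (exact Poisson for a level, exact conditional binomial for a ratio) cover counting error only. For a count of 0 the Poisson interval reaches up to 3.69 counts. Levels of different genes are compared in FPKM, in which the fragments of a gene are divided by its transcript length and by the size of the library.

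A whole embryo mixes all tissues, so the level of a transcript reflects both how many cells make it and how much each cell makes, and fewer cells of a type and less RNA per cell cannot be told apart. In fish embryos past segmentation the trunk is mostly fast striated muscle, the surface is a sheet of keratin-rich periderm, and the yolk is wrapped in a layer that exports lipoproteins. Teleost fish also carry many genes in duplicate from a whole-genome duplication in their ancestry, the copies usually being named with a closing a or b.

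Of the 31950 genes, 23588 had a value above 0 and 16217 reached an FPKM of 1, which is 50.8% of all genes. An FPKM of at least 10 was reached by 6951 genes, of at least 100 by 959 and of at least 1000 by 165. The median FPKM over all genes was 1.09. The reads were concentrated in few genes: the 20 genes with the most counts held 12.9% of the library, the 100 with the most held 28.6%, and 468 genes held 50% of it. By FPKM the concentration was stronger, with 143 genes holding 50% of the summed FPKM.

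**Figure D1:**
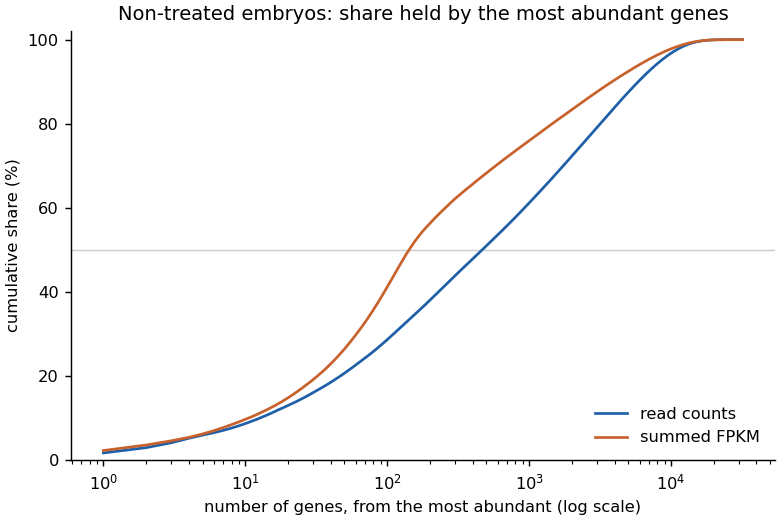
Cumulative share of the non-treated library (vertical axis, percent) held by its most abundant genes (horizontal axis, number of genes on a log scale), ranked separately by read counts (blue) and by FPKM (orange). The grey line marks 50%, which the counts reach at 468 genes and the FPKM at 143 genes.

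The 165 genes at an FPKM of at least 1000 were mostly those of protein synthesis, muscle, respiration and lipoproteins. Grouped by marker list and by gene symbol, they comprised 81 cytosolic ribosomal protein genes, 15 fast muscle genes, 12 genes of the mitochondrial genome, 7 yolk and lipoprotein genes, 4 epidermal genes, 4 globin genes, 4 high-mobility-group genes and 4 translation elongation factor genes. The remaining 34 included the cytoplasmic actins *actb2* and *actb1* (FPKM 3799 and 3207), the actin-binding thymosin *tmsb4x* (4272), the constitutive chaperones *hspa8* and *hsp90ab1* (3294 and 2168), the mitochondrial ADP/ATP carrier *slc25a5* (3024), the RNA-binding protein *cirbpb* (2229) and the betaine-homocysteine methyltransferase *bhmt* (1695). They also held the myosin light chains *myl1* (2644) and *myl10* (1038), which the fast muscle list leaves out. The high-mobility-group genes *hmgn1b* (1185) and *hmgn1a* (1084) were among them too, under older symbols that the grouping did not recognise.

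Cardiac-type actin *actc1b* (ENSDARG00000099197), the main actin of embryonic trunk muscle, had the highest FPKM among genes with more than 5000 counts. Its FPKM was 11507 in the non-treated, 10580 in the HNE and 9670 in the HDE library, so all 3 libraries held it above the FPKM of every other muscle gene listed. The calcium pump of the muscle reticulum, *atp2a1*, followed *krt4* and *actc1b* in counts, with 208047 counts and an FPKM of 4317. Tropomyosin *tpma* stood at 4636, and the calcium buffers *pvalb2* and *pvalb1* at 4794 and 4161. The elongation factor *eef1a1l1*, which brings aminoacyl-tRNA to the ribosome, had an FPKM of 6813 and 192988 counts. A gene with a clone-style symbol, *si:dkey-151g10.6* (ENSDARG00000092807), ranked 3rd at an FPKM of 8698, from 40922 counts. It reached 9417 and 8912 in the HNE and HDE libraries. What it encodes was not examined, and the grouping by symbol placed it in no family.

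Keratin *krt4* (ENSDARG00000017624), a keratin of the embryonic surface, had the most counts of all genes, 293708, which is 1.63% of the library. Its FPKM was 7084 in the non-treated, 7046 in the HNE and 7101 in the HDE library. These 3 levels lie closer together than those of *actc1b*. The other genes among the 10 with the most counts were the muscle genes *actc1b* (227482 counts), *atp2a1* and *tpma* (100738), *eef1a1l1*, *mt-co1* (135737), *actb2* (103060), *hspa8* (99439), the apolipoprotein B gene *apobb.1* (95512) and the elongation factor *eef2b* (94418).

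Cytosolic ribosomal protein genes formed the largest family considered. Its 87 entries held 9.70% of the counts (95% Clopper-Pearson interval 9.69 to 9.71) and 24.98% of the summed FPKM. The family was even: the quartiles of FPKM were 2084 and 3059 around a median of 2541, and its abundant members included *rplp1* (5353), *rps12* (5079), *rps20* (4734) and *rplp2l* (4207). A few entries lay far below the rest. Of the 87, 81 were at or above 1000, whereas among the others *faub* had an FPKM of 9.58 and an entry named *rpl37* 8.07, and *rps27.2* was listed at 0 in all 3 libraries. The symbols *rpl37* and *rps27.2* each stand on another row at an FPKM of 2524 and 1323, and the name table calls the low *rpl37* entry *COA1* and the *rps27.2* entry at 0 *rps27l*.

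The 13 protein-coding genes of the mitochondrial genome held 2.96% of the counts and 6.99% of the summed FPKM. They encode core subunits of the respiratory chain and of the ATP synthase. Of the oxidase subunits, *mt-co2* had an FPKM of 7239, *mt-co3* of 6158 and *mt-co1* of 5505. The NADH dehydrogenase subunits were lower, from 993 for *mt-nd5* to 2643 for *mt-nd4l*. The short *mt-nd4l* rested on 4702 counts, whereas *mt-nd1*, next at 2464, had 34778. The family's share of the counts was 2.397% in the HNE and 2.49% in the HDE library.

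Other abundant families held smaller shares of the counts than the ribosomal proteins. Keratins held 2.71% of the counts, actins, cytoplasmic and muscle forms together, 2.70%, muscle myosins 2.38%, apolipoproteins 2.14% and collagens 1.60%. Collagens had a smaller share of the summed FPKM, 0.37%, since their transcripts are long. The highest collagen by FPKM was *col1a1a* (624), the fibrillar collagen of skin and connective tissue, followed by the notochord and cartilage collagen *col2a1a* (415), *col1a1b* (321) and *col1a2* (304). Troponins and tropomyosins held 1.52%, heat-shock and cognate proteins 1.37% and high-mobility-group proteins, which bind DNA in chromatin, 1.03%. Of the last group *hmgn2* (2628), *hmga1a* (2225), *hmgb2a* (1820) and *hmgb2b* (1177) all exceeded an FPKM of 1000.

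**Figure D2:**
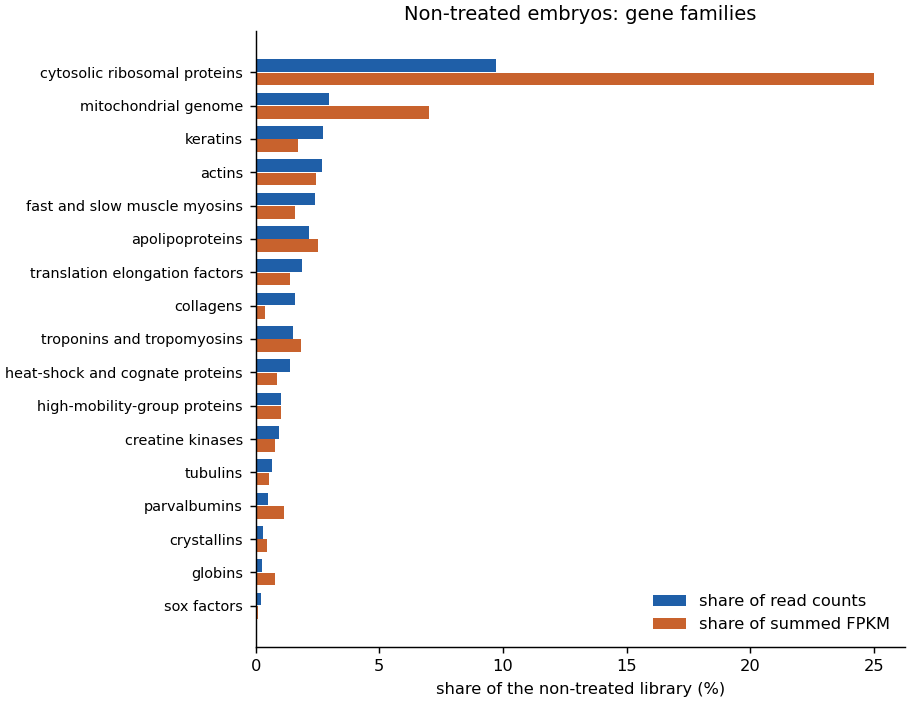
Share of the non-treated library (horizontal axis, percent) held by each gene family, as read counts (blue) and as summed FPKM (orange), for families with at least 0.2% of the counts. Ribosomal proteins held 9.70% of the counts and 24.98% of the FPKM, and collagens, with long transcripts, 1.60% and 0.37%.

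Rankings by FPKM and by counts overlapped in part. Of the 100 genes with the highest FPKM, 62 were also among the 100 with the most counts. The length that the values imply for a gene, taken as counts per FPKM scaled by the library total, had a median of 499 bases in the first list and 947 bases in the second, against 1754 bases over the genes at an FPKM of at least 1. Ribosomal protein genes were 60 of the first 100 and 28 of the second. The long *apobb.1* ranked 9th by counts and 264th by FPKM (462), and the fast myosin *myhz1.1* ranked 11th by counts (92730) and 175th by FPKM (873).

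The single highest FPKM belonged to *mt-atp8* (ENSDARG00000063910), a short gene for a subunit of the mitochondrial ATP synthase, at 19374 in the non-treated, 14142 in the HNE and 13447 in the HDE library. It rested on 4945 counts, rank 510, and an implied length of 14.2 bases, shorter than the 81-base reads. Its neighbour in function, *mt-atp6*, had 57974 counts and an FPKM of 6598. In all, 23 genes had an FPKM of at least 100 with an implied length under 100 bases. Among them *AC024175.9* had an FPKM of 2690 from 15 counts and *AL928650.1* one of 1205 from 17 counts.

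Genes with no more than 3 counts reached FPKM values of up to 493. The 10 highest were 3 clone-named genes and 7 entries for small nucleolar RNAs, which guide the modification of ribosomal RNA and are not polyadenylated in their mature form. *AC024175.18* had an FPKM of 493 from 3 counts, *AC024175.5* 477 from 2 and *AC024175.13* 302 from 2. *SNORD60* stood at 164 from 3 counts, and it was listed at 0 in the HNE and HDE libraries. The other entries were *SNORD33* (135), *SNORD35* on 2 rows of equal value (130), *SNORD12* on 2 rows (119 and 57.8) and *SNORD16* (86.9).

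**Figure D3:**
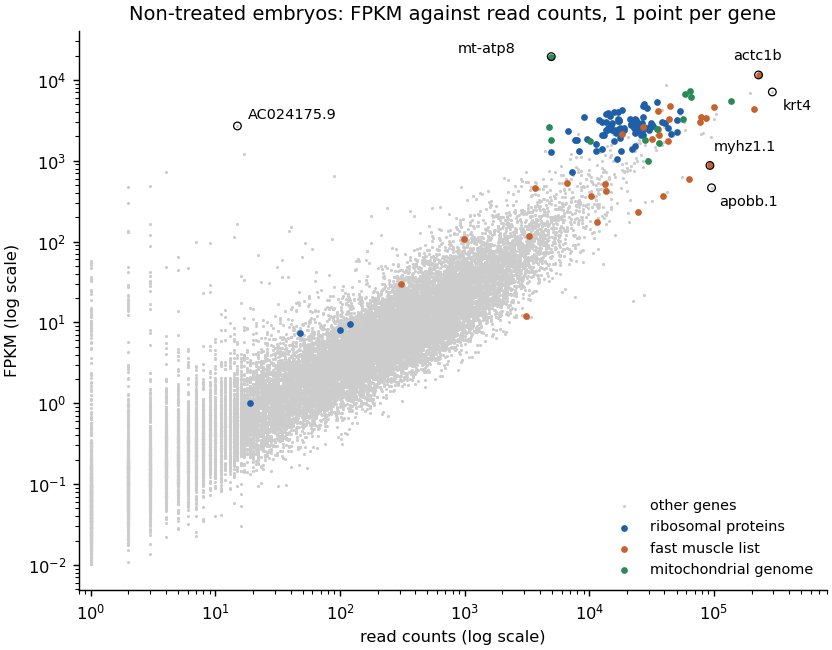
FPKM (vertical axis) against read counts (horizontal axis) of the non-treated library, both on log scales, with 1 point per gene having at least 1 count and an FPKM of at least 0.01; ribosomal protein, fast muscle and mitochondrial genes are coloured and 6 genes are named. *mt-atp8* (19374 from 4945 counts) and *AC024175.9* (2690 from 15 counts) lie above the cloud of points, and the long *apobb.1* (462 from 95512 counts) lies at its lower edge.

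Tissue markers were taken from 32 lists with 507 entries, of which 493 were found in the tables. The median FPKM of a list ranged from 1744 for fast skeletal muscle to 0.0773 for lymphocytes, was at least 100 in 4 lists and at least 1 in 23. Counts of members at an FPKM of at least 1 are read against 50.8% of all genes. In a list of 24 housekeeping genes, 22 reached an FPKM of 100, led by *eef1a1l1*, *actb2*, *hspa8* and *actb1*, and *ptmab* was listed at 0.

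All 29 fast muscle markers found had an FPKM of at least 10, and 27 of at least 100. After *actc1b*, *pvalb2*, *tpma* and *atp2a1*, the light chain *mylpfa* stood at 3493, the creatine kinases *ckmb* and *ckma* at 3411 and 3028, and the troponin genes *tnni2a.4*, *tnnt3b* and *tnnc2* at 2610, 2457 and 2079. The lowest were the calcium release channel *ryr1b* (11.9) and *tnni2b.2* (29.7). Slow muscle, a thin superficial layer in the embryo, had 2 abundant markers among its 8: the slow myosin *smyhc1* at 328 (21250 counts) and the slow troponin C *tnnc1b* at 307. Below them came *myoz2a* (18.01) and *ryr1a* (3.23), and the slow myosin *smyhc2* had an FPKM of 0.669, so that *smyhc1* was 491-fold higher (95% interval 371 to 664). This ratio was 125 in the HNE and 245 in the HDE library, both below that interval. The slow markers *tnnt1*, *mybpc1* and *tnni1a* were at 0.901, 0.476 and 0.160. Thus 4 of the 8 reached an FPKM of 1 (50%, beside 50.8% of all genes), and the list median was 2.07. The counts of *smyhc2* are fractional, and how reads were divided among the slow myosins was not tested.

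Heart markers were present at lower levels, as 14 of 16 reached an FPKM of 1 and 0 of them 100. The myosin light chain *myl7*, made in both heart chambers, stood at 41.3 (95% interval 38.01 to 44.7), and at 27.9 and 43.6 in the HNE and HDE libraries. It was followed by *tnni1b* (24.2), *tnnt2a* (21.6) and *popdc2* (16.2). The ventricular myosin *vmhc* was at 10.0 and the atrial myosin *myh6* at 1.49, a 6.73-fold difference (95% interval 5.68 to 8.01).

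The surface of the embryo was strongly represented. All 27 epidermal and periderm markers exceeded an FPKM of 1, and 16 exceeded 100. Below *krt4* came the type I keratins *cyt1* (2418) and *cyt1l* (2132) and the calcium-binding ictacalcin *icn* (2164), whereas *krt5*, a keratin of the basal layer, stood at 979. The adhesion genes *epcam* and *cdh1* had values of 144 and 27.9, and *tp63*, the transcription factor of basal keratinocytes, 25.7. Ionocyte genes were lower, with 9 of 11 at an FPKM of at least 1. The carbonic anhydrase *ca2* reached 51.0, followed by *atp6v1aa* (43.5), *atp1b1b* (33.5) and the ionocyte transcription factor *foxi3b* (7.83), and the ammonia transporter *rhcgb* had 2 counts.

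Hatching gland enzymes, the proteases that dissolve the egg envelope, were abundant. *he1a* had an FPKM of 1658 in the non-treated, 1432 in the HNE and 1429 in the HDE library, and *he1b* 760 in the non-treated library. These are near-identical copies with fractional counts, so how their reads were divided was not tested. Of the same list, *agr2* stood at 59.8 and the transcription factor *klf17* at 7.92. The *he2* entry, which the name table calls *he1.3*, was at 8.56.

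Yolk and lipoprotein genes had the third highest list median, 729, and all 15 exceeded an FPKM of 10. *afp4*, an apolipoprotein-like gene, summed to 4540 over its 2 entries, *apoa2* was at 4277, *apoa1a* at 3818 and *apoa1b* at 3063. In the HNE and HDE libraries *apoa1a* was at 2812 and 2593, and *apoa2* at 3503 and 3286, so the non-treated library was the highest of the 3 for both. The list of secreted liver proteins had a median of 82.3, and which tissue made their RNA was not tested. It held transferrin *tfa* at 830, the retinol carrier *rbp4* at 586, *fetub* at 527 and *serpina1l* at 156. By contrast *hpx*, *gc* and *ttr* were at 0.319, 0.195 and 0.186, and *fabp10a*, a fatty acid carrier of mature hepatocytes, was listed at 0, as was *ahsg2*.

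In the gut list, whose tissue of origin was likewise not tested, the 3 highest members handle lipids. *fabp1b.1* had an FPKM of 1772, *fabp2* of 285 and *apoa4a* of 70.6, followed by the endoderm factor *foxa3* at 6.73. The brush-border genes *vil1* and *anpepb* had 0.636 and 0.178 and the peptide transporter *slc15a1b* 0.0451. For the exocrine pancreas, the transcription factor *ptf1a* stood at 8.001, a factor also used in hindbrain and retina, and the digestive enzymes were near 0: *ela2* at 1.75, *cpa5* at 1.38 and *prss59.1* at 0.761 were the highest, and *cpa1*, *prss59.2*, *ctrb1* and *cel.1* had no count. The hormones of the endocrine pancreas were detected, with insulin *ins* at 22.6 (116 counts, 95% interval 95.9 to 139), glucagon *gcgb* at 20.4, the transcription factor *arxa* at 13.1 and somatostatin *sst1.2* at 7.65. *ins* exceeded its copy *insb* 11.1-fold (95% interval 6.13 to 22.2).

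Neural genes were broad and moderate. All 17 neural progenitor markers exceeded an FPKM of 10, led by the radial glial fatty acid carrier *fabp7a* at 492 and by *hmgb3a* at 257, *sox3* at 183 and *notch1a* at 115. Of 21 neuronal markers found, 20 reached an FPKM of 1. The neuronal tubulin *tubb5* stood at 262, *rtn1a* at 193, *tuba1c* at 183 and the RNA-binding protein *elavl3* at 124. The synaptic proteins *snap25a* (47.3), *snap25b* (8.88) and *syt1a* (11.1) stood below these, *snap25a* being above the list median of 36.4. The growth cone gene *gap43* was listed at 0 in all 3 libraries, which need not mean that it was silent. Among glial genes, *plp1a* was at 41.9, *mbpb* at 31.1, the glutamate transporter *slc1a2b* at 30.6 and the oligodendrocyte factor *olig2* at 22.8, and *mbpa* had no count.

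In the eye, lens and retina differed in these markers. The lens crystallins *crybb1* (495), *cryba4* (372), *cryba1b* (310) and *crybb1l2* (285) were among 9 lens markers above an FPKM of 100. The chaperone-like alpha crystallin *cryaa* was at 5.404, which is 57.3-fold below *cryba1b* (95% interval 47.8 to 69.2). This ratio was 164 in the HNE and 71.7 in the HDE library, both outside that counting interval. The 4 listed lens genes *cryaba*, *crygm2a*, *crygm2b* and *crygm4* had no count. Of 15 photoreceptor genes, the 2 highest were the retinal progenitor factors *rx1* (11.1) and *rx2* (5.24). Visual pigments were low: the blue opsin *opn1sw2* had an FPKM of 1.68 from 21 counts, the red opsin *opn1lw2* 0.894 from 23 counts and *rho*, the rod opsin, 0.0809 from 2 counts, and *opn1lw1* and *opn1mw1* had no count. The cone transducin subunit *gngt2a* stood at 1.61.

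Blood showed the embryonic globin set. The alpha globin *hbae3* had an FPKM of 2125 from 15385 counts, and 1424 and 1538 in the HNE and HDE libraries. The beta globin *hbbe1.1* summed to 2176 over its 2 entries, *hbbe3* stood at 1209 and *hbbe1.2* at 851. Several embryonic globin entries have fractional counts, so their single levels depend on how reads were divided. The adult alpha globin *hbaa1* had 16 counts and an FPKM of 1.96, which puts *hbae3* 1087-fold higher (95% interval 669 to 1902). The ratio was 1930 in the HNE and 2220 in the HDE library, both above that interval. Another adult alpha globin, *hbaa2*, had no count. The adult beta globin *hbba1*, named *ba1* in the tables, had 2 counts and *ba1l* had 5. The ratio of *hbbe3* to *hbba1* was 5122, known only broadly from those 2 counts (95% interval 1418 to 42306). Red cell genes outside the globins were lower: the anion exchanger *slc4a1a* at 36.5, the carbonic anhydrase *cahz* at 36.4 and the haem synthesis enzyme *alas2* at 22.5.

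Among white cells, neutrophil genes were the most abundant. Lysozyme *lyz* (ENSDARG00000057789), an antibacterial enzyme of neutrophils, had an FPKM of 81.5 (95% interval 75.1 to 88.3) and 595 counts. The myeloperoxidase *mpx* stood at 7.32, *nccrp1* at 25.01, *lect2l* at 20.8 and *npsn* at 11.5, and 7 of the 8 neutrophil markers found reached an FPKM of 1. Of 10 macrophage markers 5 reached it (50%, beside 50.8% of all genes), and the list median of 0.935 lay below the 1.09 of all genes. The highest were *mfap4* (9.30, from 129 counts), *slc7a7* (4.71), *havcr1* (3.85) and *mpeg1.1* (2.45, from 91 counts), and *grn2* was listed at 0. *lyz* exceeded *mpeg1.1* 33.2-fold (95% interval 26.6 to 41.9), and 83.8-fold in the HNE and 38.8-fold in the HDE library. Lymphocyte genes were at or near 0: *ikzf1*, which earlier blood progenitors also use, had 34 counts, the recombinase genes *rag1* and *rag2* had 13 and 8, *lck* had 4 and the T cell co-receptor *cd8a* had none.

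Vessel markers were low, with 16 of 18 at an FPKM of at least 1 and a median of 4.69. The transcription factor *fli1a* stood at 18.3, *plvapb* at 17.4, the tight junction gene *cldn5b* at 11.8 and *etv2* at 11.4, the receptor *kdrl* at 6.70 and *lyve1a* at 0.499. The notochord and floor plate list had a median of 18.5, led by *col2a1a*, *col9a2* (137), *epyc* (87.8) and the caveolin *cav1* (49.3). The signal *shha* was at 22.3 and the notochord factor *ta* at 14.8. In the crest and cartilage list, the matrix gene *matn4* was at 149, *tfap2a* at 47.6, *dlx5a* at 37.8 and *twist1a* at 31.2, and *matn1* was listed at 0.

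Pigment cell genes were led by *gch2* (56.0), which makes the pteridine precursor of yellow cells, the melanin enzyme *dct* (17.9), the melanosome protein *pmela* (17.8) and the melanin enzyme *tyrp1b* (14.3). Tyrosinase *tyr*, the first enzyme of melanin synthesis, was at 1.69 from 54 counts. In the kidney list, the sodium pump *atp1a1a.4* stood at 37.6, *cdh17* at 26.8, *podxl* at 18.1 and *pax2a* at 15.3, whereas the slit-diaphragm gene *nphs1* had 0.447. Inner ear genes ranged from *cldn7b* (51.5), *dlx3b* (25.01), *eya1* (20.6) and the otolith protein *stm* (17.6) down to the hair-cell factor *pou4f3*, with 1 count, and *atoh1b*, with none.

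Lists for earlier stages and for the germ line lay at the low end. Of 21 blastula and gastrula genes 6 reached an FPKM of 1. The signal modulator *bambia* was at 32.3, followed by *vox* (9.71), *tdgf1* (3.66) and the organizer gene *gsc* (3.26), whereas the nodal ligand *ndr1* had 3 counts, *nanog* 3, and *ndr2*, *dharma* and *sebox* none. In the segmentation list, *hes6* (127), *dlc* (35.8) and the myogenic factors *myod1* (19.2) and *myog* (6.97) were the 4 highest. Their use extends beyond somite formation, and the clock genes *her7* and *her1* had 4 and 0 counts *msgn1* and *mespaa* had 3 and 1, and *mespbb* had none. Germ cell genes were led by *ddx4* (1.79 from 87 counts), *nanos3* (1.302), *piwil1* (0.625) and *dazl* (0.382). Of 17 vitellogenin and egg coat genes 1 reached an FPKM of 1, *zp3.2* at 1.39, followed by *zar1* (0.824), *zp3b* (0.627) and *zp2.3* (0.373). The yolk precursor *vtg1* had 7 counts, and *vtg3*, *vtg6* and *h1m* had none.

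**Figure D4:**
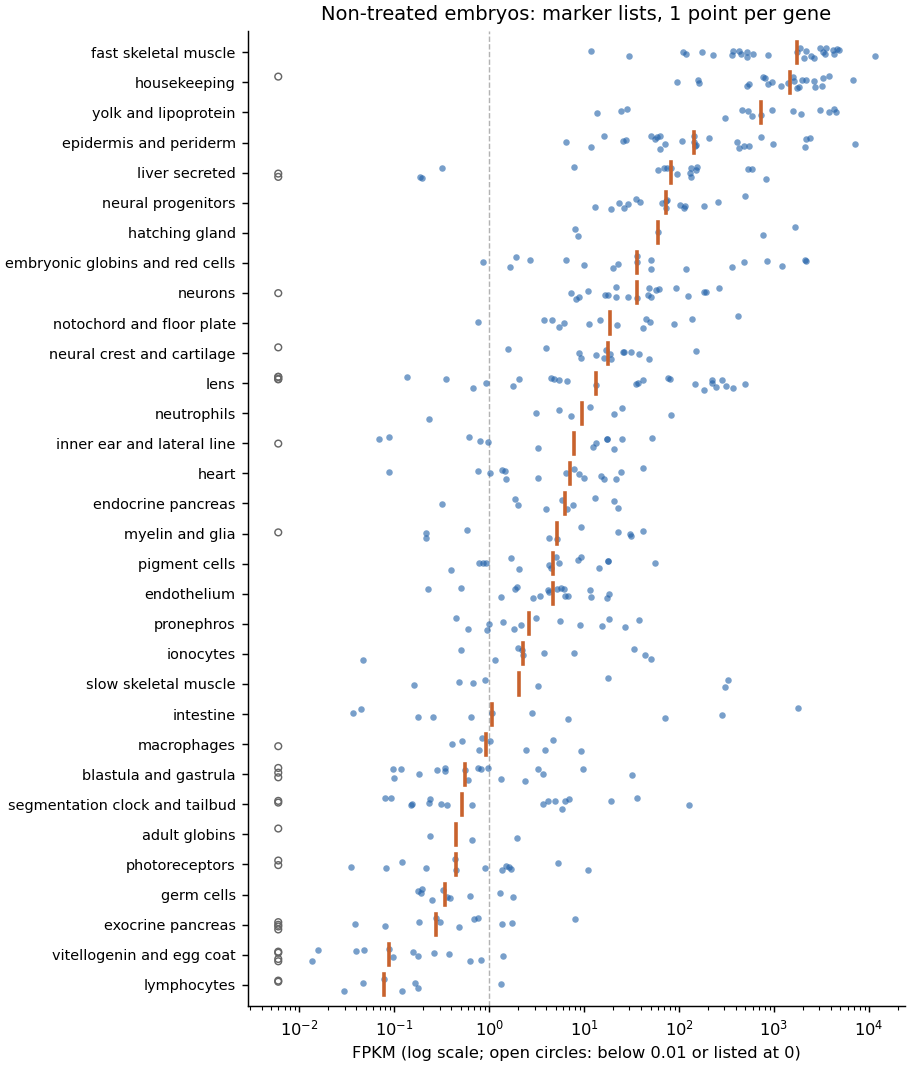
FPKM in the non-treated library (horizontal axis, log scale) of the members of 32 marker lists, with 1 point per gene, the list median as an orange bar and a dashed line at an FPKM of 1; open circles are genes below 0.01 or listed at 0. The medians run from 1744 for fast skeletal muscle to 0.0773 for lymphocytes, and lists such as liver and intestine span several orders of magnitude.

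Transcription factor families were present broadly. Of 50 *hox* entries, which pattern the body axis, 49 had an FPKM of at least 1 (98%, beside 50.8% of all genes). The highest were *hoxa3a* (78.5) and *hoxc3a* (58.9), and the *hox* median was 11.5. Of 27 *sox* entries 22 reached an FPKM of 1 (81.5%). The neural *sox11b* stood at 241, *sox3* at 183, *sox19a* at 113 and *sox11a* at 73.1, whereas the endoderm factors *sox32* and *sox17* had 5 and 2 counts. The *pax* and *fox* families had medians of 3.48 and 4.06, led by *pax6a* (39.2) and *foxk2* (54.2).

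Paralog pairs were found by name, as symbols that differ only in a closing a or b and stand on 1 row each, which gave 2465 pairs. A shared stem is not proof of duplication: *eif5a* and *eif5b*, which match the rule, encode unrelated initiation factors. In 1534 pairs the higher member had an FPKM of at least 5. Of these, 689 pairs were at least 4-fold apart, which is 44.9%, and 1049 were at least 2-fold and 409 at least 10-fold apart. The median fold was 3.34, the quartiles being 1.76 and 11.0, and 286 pairs were within 1.5-fold. The member named a was the higher in 816 of the 1534 pairs, or 53.2%. In 688 of the 689 pairs at least 4-fold apart the same member was also the higher in the HNE and HDE libraries. At the 4-fold limit itself, *acsl4a* and *acsl4b* were 4.01-fold apart, and *ptbp2b* and *ptbp2a* 3.99-fold.

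Muscle showed both kinds of pair side by side. The creatine kinases *ckmb* and *ckma* differed by 1.13-fold (95% interval 1.12 to 1.14), the fast troponins *tnnt3b* and *tnnt3a* by 1.31-fold and the light chains *mylpfa* and *mylpfb* by 1.62-fold. By counts the light chains differed 4.30-fold, and by FPKM 2.13-fold in the HNE and 2.02-fold in the HDE library. By contrast *actc1b* was 19.6-fold above *actc1a* (95% interval 19.3 to 20.0), and the counts of *desmb*, *mybpha* and *mybpc2a* were 3, 10 and 5 beside 10359, 13048 and 11501 for *desma*, *mybphb* and *mybpc2b*. Desmin is the intermediate filament of muscle, and the other genes encode myosin-binding proteins. Of 40 pairs grouped with muscle by the start of their symbols, 17 were at least 4-fold apart (42.5%), beside 44.9% of all pairs. That grouping is loose and also takes in pairs such as *aldocb* and *aldoca*.

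The 10 pairs farthest apart with a count in both members included, besides those 3 muscle pairs, *eif3ba* and *eif3bb*, *dtnba* and *dtnbb*, *acp5a* and *acp5b*, *gtf2f2a* and *gtf2f2b*, *nid2a* and *nid2b*, and *aldocb* and *aldoca*. In 6 of the 10 pairs the lower member had 1 to 3 counts, so the ratio is known only broadly. For the subunits of initiation factor 3, *eif3ba* with 11918 counts and *eif3bb* with 3, the ratio of 2911 had a 95% interval of 996 to 14119. It was 1124 in the HNE and 851 in the HDE library. The chromatin protein pair *hmga1a* and *hmga1b* had ample counts, 82266 and 281, and a ratio of 342 (95% interval 304 to 386). That ratio was 440 in the HNE and 390 in the HDE library. For the ribosomal fusion genes *faua* and *faub* the ratio was 217.

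The 5 closest pairs with at least 1000 counts in both members encode proteins of varied roles. The neuroendocrine factors *insm1a* and *insm1b* had FPKM values of 65.8 and 65.7, and the splicing factors *puf60a* and *puf60b* 103 and 103. The G protein subunits *gnb1a* and *gnb1b* stood at 68.6 and 68.2, the sodium pump subunits *atp1b3a* and *atp1b3b* at 67.3 and 66.8, and the prohibitins *phb2a* and *phb2b* at 65.4 and 63.9. These pairs were chosen for their closeness, and in the HNE and HDE libraries the ratio was 1.38 and 1.37 for *phb2a* to *phb2b*, 1.17 and 1.22 for *atp1b3a* to *atp1b3b*, and 1.104 and 1.29 for *gnb1a* to *gnb1b*. By counts alone *puf60a* had 0.70 and *gnb1a* 0.48 of the reads of its partner, so equality there rests on the lengths used for FPKM.

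**Figure D5:**
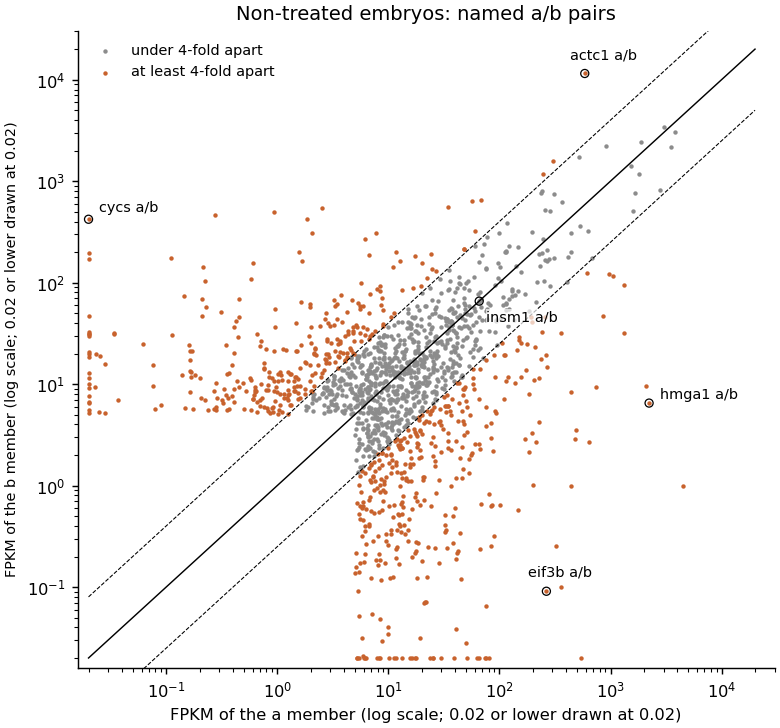
FPKM of the b member (vertical axis) against that of the a member (horizontal axis) for the 1534 named pairs of the non-treated library whose higher member had an FPKM of at least 5, on log scales, with values of 0.02 or lower drawn at 0.02. The solid line marks equal levels and the dashed lines 4-fold; 689 pairs (orange) lie at or beyond them, among them *eif3b*, *hmga1* and *actc1*, while *insm1* lies on the line of equality.

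Pairs were also grouped by the start of their symbols, which only approximates function. By this grouping 18 of 59 pairs of developmental transcription factors were at least 4-fold apart (30.5%), with a median fold of 2.37, and 12 of 37 pairs of small GTPases (32.4%). Among solute carriers 22 of 35 pairs (62.9%) and among neuronal proteins 19 of 34 (55.9%) were, with median folds of 5.43 and 4.63, beside 44.9% and 3.34 over all pairs. Examples among transcription factors were *sox11b* and *sox11a*, 3.30-fold apart, and *meis1b* and *meis1a*, 2.43-fold apart. Among solute carriers the mitochondrial phosphate carrier *slc25a3b* had an FPKM of 501 and *slc25a3a* 0.933, and the glutamate transporter *slc1a3a* stood 17.9-fold above *slc1a3b*. Of translation and proteasome pairs 7 of 18 were at least 4-fold apart, *rpl5a* and *rpl5b* (1.08-fold) being among those that were not.

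In 47 of the 1534 pairs the lower member had no count, in 26 of them in all 3 libraries. The 10 with the most counts in the other member were *ptmaa* with *ptmab*, *etf1b* with *etf1a*, *cycsb* with *cycsa*, *snx1a* with *snx1b*, *aqp3a* with *aqp3b*, *sumo2b* with *sumo2a*, *ndufs8a* with *ndufs8b*, *evpla* with *evplb*, *mapkapk2a* with *mapkapk2b*, and *fbxw11b* with *fbxw11a*. The counted members reached 10450 counts for *ptmaa*, a prothymosin, and 5852 for *cycsb*, a cytochrome c. A value of 0 need not mean that a gene was silent. The proteasome subunit gene *psmd2* and the respiratory chain gene *ndufa13*, which dividing and respiring cells require, were listed at 0 in all 3 libraries, while the 15 *psmd* entries with a count lay between an FPKM of 18.8 and 174. No single fold is therefore given against a gene listed at 0. The 47 pairs are nevertheless counted in the totals above as at least 4-fold apart and enter the median fold. Without them the share at least 4-fold apart was 43.2%.

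The genes that the study followed after Z-REX had the following baseline. For *wdr1* no value is given, as it was found under neither that symbol nor a current name. Keap1, the sensor that marks the transcription factor Nrf2 for degradation, is encoded by *keap1a* (ENSDARG00000016132) and *keap1b* (ENSDARG00000074634). *keap1b* had an FPKM of 10.6 (554 counts) and *keap1a* 3.65 (178 counts), a 2.91-fold ratio (95% interval 2.45 to 3.46) that was 2.37 in the HNE and 2.78 in the HDE library. In the HNE and HDE libraries *keap1a* was at 5.88 and 4.95 and *keap1b* at 13.9 and 13.8. The non-treated library was the lowest of the 3 for both genes. A supplementary figure title of the paper calls the expressed Keap1 human. Whether reads of the injected Halo-TEV-Keap1 mRNA fall on either row was not tested. Of the genes for Nrf2, *nfe2l2a* stood at 9.14 and *nfe2l2b* at 1.05 from 34 counts, an 8.75-fold ratio (95% interval 6.20 to 12.7). This ratio was 22.3 by counts, and in FPKM 3.73 in the HNE and 5.89 in the HDE library.

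Among the few targets of that pathway named here, the glutathione transferase *gstp1* was the most abundant, at an FPKM of 225. Its relative *gstp2* was listed at 0, with 4 and 1 counts in the HNE and HDE libraries. The carbonyl reductases *cbr1l* and *cbr1* stood at 30.9 and 1.44, the sulfotransferase *sult6b1* at 35.8, the cathepsin *ctsc* at 21.1 and the transporter *abcb6a* at 1.17. Of the actin-severing cofilins, *cfl1* was at 821, *cfl1l* at 485 and the muscle form *cfl2* at 49.7. Each step in that order exceeds the counting error, the counts being 12668, 7937 and 2331. The apoptosis effector *baxa* stood at 20.8 and *baxb* at 3.94, and the executioner caspase *casp3a* at 51.4 was 15.2-fold above *casp3b* (95% interval 13.6 to 17.2). By counts the caspase ratio was 6.13, and by FPKM it was 10.4 in the HNE and 10.3 in the HDE library. The leukocyte actin regulator *coro1a* was at 7.57 and *mpeg1.2* at 0.516. The glycolytic enzyme genes *gapdh* and *gapdhs*, often used as references, stood at 948 and 159.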

How the data were processed

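The authors isolated polyadenylated RNA from whole embryos, made stranded libraries and sequenced single-end reads of 81 bases. By the methods and processing notes, adapters were removed by the authors in cutadapt 1.8, reads were aligned to GRCz10 by TopHat2 2.1, and the authors computed FPKM values in Cufflinks 2.2. The counting behind the deposited expected counts is not given in the sources used here. Of the non-treated values, 710 are fractional beyond a tolerance of 1e-06, and all counts were rounded to whole numbers, which brought 98 small values to 0. FPKM was 0 exactly where the unrounded count was 0. Near-identical copies and overlapping genes may share reads.

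The non-treated library (17996111 counts) was ranked by FPKM and counts, and families, marker lists and pairs were summarised in Python 3.11.15 with pandas 2.3.3 and scipy 1.17.1. Intervals are exact at 95%. Symbols are those of the tables; a table of current names, which covered 26120 of the 31950 gene IDs, matched 13 further list entries. Entries sharing a symbol were summed in lists only.

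Named genes are the 20 highest by FPKM and 10 by counts, of each list the 4 highest and those at 0, the 10 farthest pairs (higher member with at least 50 counts) and 5 closest pairs, the genes followed in the study, and the 10 highest FPKM among genes with no more than 3 counts. Since many pairs have a member at 0, these were listed apart, 10 by counts. Other genes were named after their values were seen, as were the groups of pairs, which were set by the start of the symbols. All members and lists were chosen with earlier results of these data known. The scripts were tested on simulated data. The alternatives tried were other thresholds, counts against FPKM, pseudocounts, the treated libraries and subsets of pairs. Sequences, genome positions and a few genes that the rule selects are not reported here.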

Additional observations from a re-analysis of the deposited data

How the results depend on the processing

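At an FPKM of at least 5, 10132 genes were detected, and 6 other definitions gave between 16301 and 21816. The share of the 20 most abundant genes was 8.62% for 10 genes, 28.6% for 100 genes, 14.8% of the summed FPKM, 13.3% without fractional genes, 12.9% in the HNE and 12.5% in the HDE library. The ribosomal share was 24.98% of the summed FPKM, 7.16% without symbols that carry a suffix, 10.3% in the HNE and 9.77% in the HDE library. The 100 highest FPKM values shared 95 genes with those of the HNE library, 94 with those of the HDE library and 96 with a ranking by counts per base that set short implied lengths to 200 bases, an alternative chosen after seeing the data. The implied length is itself taken from the FPKM, so only genes under 200 bases could lose their place in that ranking. The overlap of 96 is therefore no independent check. Of the named pairs 68.4% were at least 2-fold apart, 26.7% at least 10-fold apart, and 38.9% at least 4-fold apart after adding 1 to each FPKM, while 9 other settings, 3 of them subsets of pairs (no member at 0, no stems closing in c or d, no neighbours) chosen after seeing the data, gave 43.2% to 46.6%. For the ratios of single pairs, counts in place of FPKM moved 7 of 18 beyond their counting interval in the non-treated library. The HNE library moved 8 of 15 beyond that interval and the HDE library 7 of 14. The interval leaves out the counting error of the HNE and HDE libraries, so a move does not show a difference beyond counting error. Of those at least 4-fold apart, 0 changed direction. Between 22 and 25 lists had a median of at least 1 under the 4 alternatives tried.

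No paired analysis was possible because each condition has 1 library. Counting per coding length, pairs on different chromosomes, protein identity and promoter motifs were not run, as no sequence or annotation of the build of the files was used here. The neighbouring pairs left out above are 4, by gene order in the RefSeq annotation of GRCz12tu, which placed 1430 of the 1534 pairs. Levels from 3 counts or fewer have wide intervals, and in FPKM such counts can reach 493 for short transcripts.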

Other observations

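The relation of counts to FPKM differs between libraries for some genes. For 2996 genes the non-treated library held 1000 counts or more. Their counts per FPKM, relative to the median gene, differed by over 1.2-fold from the non-treated library in 27 genes in both other libraries and in 109 in at least 1 of them. The phosphatase gene *ptp4a1* had 3193, 3668 and 2852 counts in the non-treated, HNE and HDE libraries and FPKM values of 544, 469 and 239. For *pnrc2* the counts were 5288, 4848 and 5346 and the FPKM values 343, 229 and 242. For the ribosomal protein gene *rps28* the counts were 11926, 12588 and 10340 and the FPKM values 3167, 4210 and 4004. The cause was not tested.

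The elongation factor gene *eef1a2*, the form of adult muscle and neurons in mammals, was listed at 0 in all 3 libraries, while *eef1a1l1* had 192988 counts in the non-treated library.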
